A study of Glycine max with 12 samples.

Results

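Antisense lncRNAs are long non-coding transcripts read from the DNA strand opposite to an annotated gene, called the host gene here. In young soybean pods, 256 of the 11072 assembled lncRNA transcripts of the deposited table (2.31%) were studied as antisense lncRNAs. They carry the StringTie class code x, which marks an exon overlap with a gene on the other strand, and they lie on chromosomes 1 to 20. The table holds 271 transcripts of this class, of which 3 on other sequences and 12 opposite 9 genes described separately (LOC100789918, VSPA, VLXC, BMY1, PRP3, DGAT, FATB1B, PLDZ and WRI1) were left out. No expression value entered the choice.

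The pods came from 4 groups with 3 biological replicates each, written MT_40 (libraries MT_4 to MT_6), MT_30 (MT_7 to MT_9), JN_40 (JN_4 to JN_6) and JN_30 (JN_7 to JN_9). MT_40 and MT_30 are pods of MT72, a low-linolenic acid mutant of the fourth generation that was raised by ethyl methanesulfonate treatment, taken 40 and 30 d after flowering. JN_40 and JN_30 are pods of the high-oil variety JN18, labelled the wild type, at the same ages. MT72 is a single mutagenised line, so that all mutations it carries differ from JN18 together and cannot be told apart. Whole pods were used, so that fewer cells of a type and less RNA per cell cannot be told apart either. Levels are FPKM, the number of sequenced fragments adjusted for transcript length and for the depth of the library. The ratio of deposited coverage to FPKM implies 10.0 to 12.3 Gb of aligned bases per library. At this depth, 1 FPKM of a member of median length would correspond to 22.0 to 26.9 reads. The total of raw reads stated in the paper's text amounts to fewer bases than these depths together, and the difference was not resolved. JN_9 stood apart: over the members its log2 levels correlated with those of JN_7 and JN_8 at 0.484 and 0.506, against 0.689 to 0.825 for every other pair of replicates. It also listed 2847 of all transcripts at 0, against 2074 to 2360 in each of the other libraries. The table holds lncRNAs only, and so markers of pod tissues were not checked here.

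A transcript from the opposite strand can pair with the RNA of its host gene, can disturb transcription of the host through the polymerases that meet there, and can give rise to small RNAs where both strands are present. In plants, antisense lncRNAs are best known from the control of flowering, where the COOLAIR transcripts of Arabidopsis lie opposite the floral repressor FLC. Whether an antisense lncRNA acts on its host is not shown by its level. Host levels were not analysed here, and reads of the host and of the antisense transcript are separated only if strand was used in counting. The paper names a stranded library kit, but the use of strand in counting is not stated. Without it, the FPKM of members can hold reads of the host, which was not tested.

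The members lay opposite 207 host genes, and 174 of these hosts are protein-coding in the reference table. They came from 220 assembled genes, because 33 hosts had more than 1 member, 11 had at least 3 and the highest number was 5. The plus strand carried 134 members and the minus strand 122. Each chromosome had 5 to 24 of them, with a median of 12.5 and the most on chromosomes 13 and 15.

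Nearly all members were spliced. Of the members, 96.9% had more than 1 exon, against 18.6% of the other lncRNAs, and 220 of the 256 (85.9%) had exactly 2 exons. In this table every spliced transcript has a strand, while 7776 single-exon transcripts have none and could not be placed in the antisense class. The share of spliced members follows in part from this requirement. Their length without introns had a median of 328.5 bases and ranged from 204 to 2675 bases, close to the median of 338 bases of the other lncRNAs. Over the genome they reached much farther, with a median span of 2427 bases and a highest span of 114156 bases. The introns of the 248 spliced members summed to a median of 2025 bases per transcript, against 796 bases in the other 2011 spliced lncRNAs. At one end, 47 members had under 100 intron bases, and at the other 92 had 5000 or more. Members with 5000 or more intron bases were the more abundant, with a median level of 0.880 FPKM, against 0.410 to 0.530 FPKM in the 3 classes with shorter introns.

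Most members were low. Their mean FPKM over the 12 libraries had a median of 0.626, against 0.378 for the other lncRNAs. At least 1 FPKM on average was reached by 85 members (33.2%), against 17.2% of the others, and at least 10 FPKM by 8. Of the 256 members, 240 were above 0 in at least 1 library, 103 in all 12, and 16 were listed at 0 throughout. The filter of more than 0.1 FPKM in at least 3 libraries was passed by 195 members (76.2%), against 82.7% of the others, and the tests cover these 195 alone. A further 45 were above 0 in some library but did not pass.

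By library, 181 ± 3.61 members were above 0 in MT_40 and 174 ± 5.86 in MT_30 (SD, n = 3). In JN18 the numbers were 171 ± 6.66 in JN_40 and 171 ± 6.03 in JN_30. The median FPKM of the members was 0.431 ± 0.0165 in MT_40 and 0.260 ± 0.0351 in MT_30. In JN18 it was 0.371 ± 0.0608 in JN_40 and 0.280 ± 0.108 in JN_30. The MT_40 libraries (0.415 to 0.448) did not overlap those of MT_30 (0.221 to 0.289), while the JN_40 libraries (0.319 to 0.438) overlapped those of JN_30 (0.212 to 0.405). The median of all other lncRNAs was 0.287 in MT_40 and 0.313 in MT_30, and in JN18 0.292 in JN_40 and 0.302 in JN_30. For these others too the MT_40 libraries (0.272 to 0.296) did not overlap those of MT_30 (0.303 to 0.328), in the opposite direction. In JN18 they overlapped (0.275 to 0.325 and 0.231 to 0.354).

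The summed FPKM of the members was 750 ± 312 in MT_40 and 278 ± 21.6 in MT_30, and in JN18 434 ± 60.4 in JN_40 and 313 ± 74.7 in JN_30. Without the 10 most abundant members, which held 44.1% of the sum, it was 313 ± 28.7 in MT_40 and 201 ± 11.2 in MT_30, and in JN18 251 ± 24.6 in JN_40 and 228 ± 63.2 in JN_30.

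**Figure D1:**
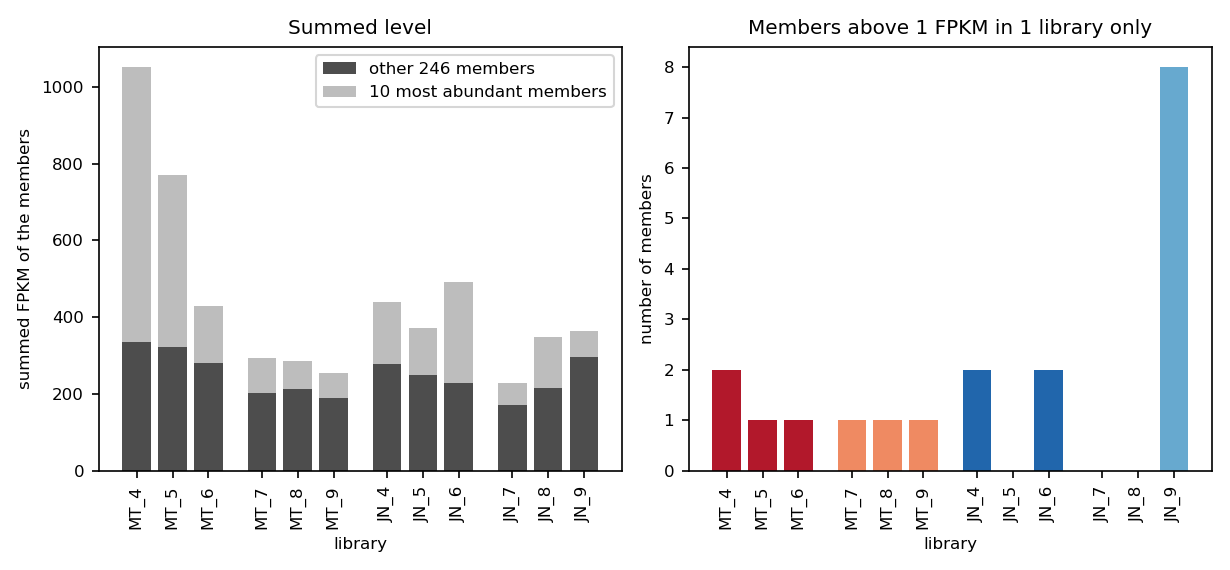
The left panel plots the summed FPKM of the members in each library, split into the 10 most abundant members and the others, and the right panel the number of members above 1 FPKM in that library and at most 0.1 FPKM in the other 11. The highest sums are those of MT_4 and MT_5, and JN_9 holds 8 of the 19 members seen in 1 library.

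Of the 4 most abundant members, 3 were isoforms of 1 assembled gene on the plus strand of chromosome 15, which spans positions 9426167 to 9443178. MSTRG.16798.1 and MSTRG.16798.2 were assigned to LOC100812425 and MSTRG.16798.3 to HPS, the gene of a hydrophobic protein of the soybean seed surface. MSTRG.16798.1 had 287, 115 and 1.36 FPKM in MT_40, 0.380, 0.134 and 0.198 in MT_30, 28.9, 2.09 and 66.3 in JN_40, and 0.0758, 4.91 and 0 in JN_30. Replicates of MT_40 thus differed far more than those of most other members, and MT_6 lay within the range of JN_30. MSTRG.16798.3 had 116, 61.2 and 0.776 FPKM in MT_40, 0.0224, 0 and 0.000231 in MT_30, 27.4, 2.04 and 67.4 in JN_40, and 0.00420, 8.35 and 0 in JN_30. MSTRG.16798.2 was high in the same 2 libraries of MT_40, with 172, 117 and 3.49 FPKM, but reached only 0.264, 3.70 and 0.912 in JN_40. In MT_30 it had 1.85, 0.166 and 1.90 FPKM, and in JN_30 0.156, 0.0512 and 0.824.

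The second most abundant member was MSTRG.27696.1, opposite LOC100777426 on the minus strand of chromosome 19 (44575166 to 44582002, 2 exons), with a mean of 31.1 FPKM over all libraries, against 42.1 for MSTRG.16798.1. It had 49.3, 47.3 and 60.1 FPKM in MT_40, 3.999, 2.79 and 3.12 in MT_30, 47.2, 51.5 and 48.4 in JN_40, and 6.76, 36.9 and 16.1 in JN_30. All 6 libraries at 40 d lay above all 6 at 30 d.

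The other 6 of the 10 most abundant members differed widely in how much they varied. MSTRG.38510.1, opposite LOC100527500 on chromosome 4, had 18.5, 16.0 and 18.1 FPKM in MT_40, 12.03, 10.3 and 11.6 in MT_30, 32.8, 24.7 and 19.0 in JN_40, and 14.5, 17.1 and 25.8 in JN_30. It was called in none of the comparisons. MSTRG.15496.1 lay opposite LOC100818461, which the reference names RSV3, a locus of resistance to soybean mosaic virus. Over the 12 libraries it ranged from 6.37 to 16.6 FPKM with a median of 12.02. Its coefficient of variation, the SD divided by the mean, was 0.243, against a median of 0.622 over the 85 members that averaged 1 FPKM or more. For MSTRG.12387.1 it was 0.248 and for MSTRG.38510.1 0.359, against 0.789 for MSTRG.29612.1, 1.38 for MSTRG.17969.1 and 1.73 for MSTRG.9662.1. In 32 of these 85 the coefficient was under 0.5, and in 8 it was over 2.

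The first comparison asked which antisense lncRNAs differed between pods of 40 d and of 30 d. Averaged over both lines, 21 of the 195 tested members were higher at 40 d and 4 lower (limma on log2 of FPKM + 0.1, adjusted p of at most 0.05 over all lncRNAs tested). Among all 9142 tested lncRNAs, 2.56% were called higher and 1.49% lower, so that the members' 10.8% called higher lay above the background and their 2.05% called lower near it. The median log2 fold change of the members was 0.22, against -0.10 over all tested lncRNAs. Counts were 41 without JN_9, 15 without MT_9 and 16 without MT_8. Here and below, shares over all tested lncRNAs were not computed with a library left out. Among the calls are 3 members (MSTRG.21850.1, MSTRG.31225.1 and MSTRG.41111.4) that passed the filter through a single group, and so had to differ. They make up 1 of the 21 higher and 2 of the 4 lower calls. Not counted among them is MSTRG.36990.1, called higher, which passed the filter through libraries at 40 d alone. Nor is MSTRG.608.1, called higher, which passed through the MT_40 libraries and JN_8. The 21 higher members came from 18 assembled genes. In 11 of the 21, all 6 libraries at 40 d lay above all 6 at 30 d. These 11 were counted among members already called, and the share over all tested lncRNAs was not computed. The count therefore describes the calls and adds no support to them.

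Tested within MT72 alone, 11 members were higher in MT_40 than in MT_30 and 3 were lower, where 1.59% and 0.919% of all tested lncRNAs were called. At the study's cut-offs (a log2 fold change beyond 1 and an unadjusted p of at most 0.05), 34 were higher and 17 lower, with 6.81% and 7.37% of all. The study applied these cut-offs with edgeR, and here they were applied to limma. These counts are therefore not those that the study's procedure yields. Of the 3 lower members, 2 passed the filter through MT_30 alone. Among the higher ones, MSTRG.608.1 passed through the MT_40 libraries and JN_8. The total of 14 at the adjusted p was 7 without MT_4 or MT_5, 6 without MT_7, 3 without MT_8, 5 without MT_9 and 27 without JN_9. Within JN18, 1 member was higher in JN_40 than in JN_30 and none was lower, against 0.164% and 0.0328% of all. The unadjusted thresholds were passed by 32 higher and 10 lower members, with 5.49% and 5.14% of all. The member called within JN18, MSTRG.21850.1, passed the filter through JN_40 alone. The call was lost without JN_7. With a JN_40 library left out, the member failed the filter and was not tested. Counts of calls were 7 without JN_8, 3 without JN_9 and 2 without MT_5 or MT_9.

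The stage effects of MT72 and JN18, which share no libraries, correlated over the 195 members at a Pearson r of 0.583, against 0.398 over all tested lncRNAs. Members with a positive stage effect in both lines made up 44.1%, against 25.3% of all, and those with a negative effect in both 23.6%, against 34.8%. These are descriptions across transcripts, which are not independent, since isoforms of 1 gene share reads. With limma, 0 members were called for a different stage effect in MT72 and JN18, where 0.0766% of all tested lncRNAs were, and voom on estimated reads called 0 as well. At an unadjusted p of at most 0.05 there were 18 such members, 9.23% of those tested, against 6.73% of all tested lncRNAs, and 1 was called at the adjusted p without JN_8. A stage call in MT72 that is missing in JN18 is therefore not shown to differ between the lines.

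**Figure D2:**
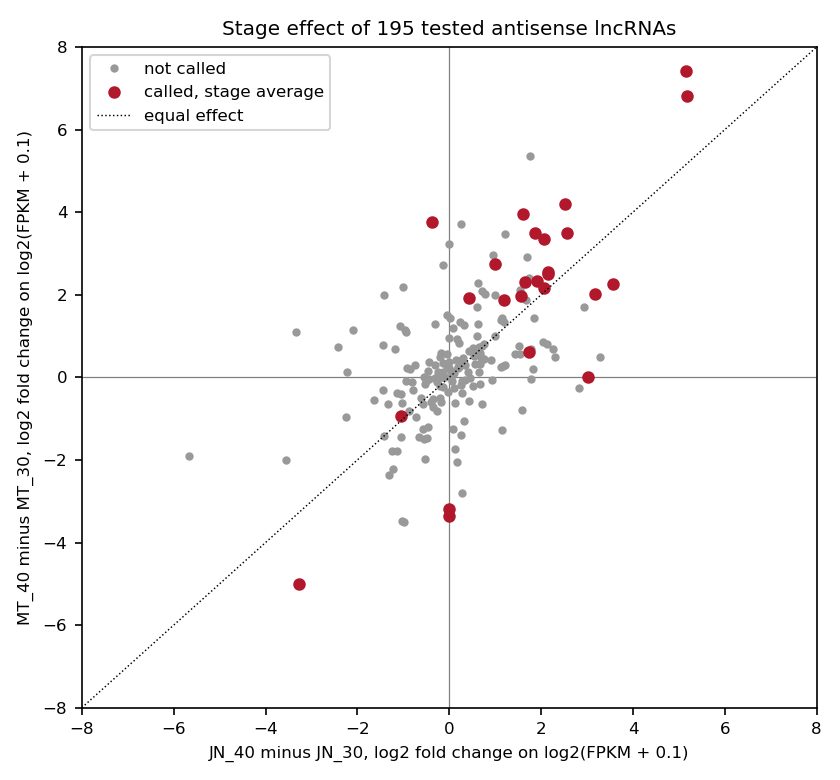
Each of the 195 tested antisense lncRNAs is a point, with its log2 fold change between 40 and 30 d in MT72 on the y axis and in JN18 on the x axis, both on log2(FPKM + 0.1). Red points are the 25 called for the stage effect averaged over both lines, 21 higher and 4 lower at 40 d, and the dotted line marks equal effects.

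MSTRG.27696.1, described above, had the lowest adjusted p of the stage effect (log2 fold change 2.78 ± 0.33 (SE), adjusted p = 0.000903). In MT72 the log2 fold change was 3.95 ± 0.46 (adjusted p = 0.00119). MSTRG.31268.1, opposite LOC100499886 on chromosome 2 (47084596 to 47085478, minus strand), had 9.11, 4.70 and 7.80 FPKM in MT_40, 0.235, 0.159 and 0.535 in MT_30, 5.32, 4.10 and 4.15 in JN_40, and 0.154, 0.472 and 3.44 in JN_30. Groups of the 2 stages did not overlap, and JN_9 came closest to them among the libraries at 30 d. The stage effect was a log2 fold change of 3.36 ± 0.51 (adjusted p = 0.00280).

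MSTRG.29200.1, opposite LOC100798454 on chromosome 2, had 3.32, 2.54 and 2.43 FPKM in MT_40, 0.0345, 0.741 and 0.0435 in MT_30, 2.13, 4.08 and 1.59 in JN_40, and 0.682, 0.886 and 0.325 in JN_30. Its log2 fold change was 2.67 ± 0.45 (adjusted p = 0.00488). MSTRG.14102.1, opposite LOC100776429 on chromosome 14, was at 0 in 4 of the 6 libraries at 30 d. It had 2.001, 1.27 and 0.642 FPKM in MT_40, 0, 0.0510 and 0 in MT_30, 1.28, 0.962 and 0.711 in JN_40, and 0, 0.480 and 0 in JN_30 (adjusted p = 0.00315). Since most 30 d values lie under the pseudocount, the fitted log2 fold change ranged from 0.96 to 5.37 over the alternatives.

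MSTRG.10381.1 opposite LOC100799780 had 1.35, 1.09 and 1.59 FPKM in MT_40, 0.171, 0 and 0 in MT_30, 2.61, 1.07 and 0.839 in JN_40, and 0.00108, 0.614 and 0.457 in JN_30 (adjusted p = 0.00821). MSTRG.29993.1 opposite LOC547569, a member of only 277 bases on chromosome 2, had 1.04, 1.63 and 0.871 FPKM in MT_40, 0.0912, 0.166 and 0.0861 in MT_30, 0.923, 0.674 and 1.62 in JN_40, and 0.151, 0.514 and 0 in JN_30 (adjusted p = 0.00733). In both, the 2 stages did not overlap.

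MSTRG.2190.1 opposite LOC100808698, the longest member at 2675 bases in 4 exons, had 3.20, 1.83 and 1.39 FPKM in MT_40, 0.333, 0.356 and 0.299 in MT_30, 2.30, 1.71 and 2.72 in JN_40, and 0.503, 1.63 and 0.272 in JN_30. Only JN_8 overlapped the libraries at 40 d, and the log2 fold change was 1.98 ± 0.36 (adjusted p = 0.00717). MSTRG.30744.1 opposite LOC100127361 had 0.764, 0.682 and 1.49 FPKM in MT_40, 0.0748, 0 and 0.101 in MT_30, 0.795, 1.06 and 0.677 in JN_40, and 0.184, 0.302 and 0.775 in JN_30 (adjusted p = 0.0106). Here JN_9 overlapped the libraries at 40 d.

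MSTRG.36990.1 opposite LOC100802759 on chromosome 4 had 0.704, 0.0748 and 0.381 FPKM in MT_40, 0 in all 3 libraries of MT_30, 1.30, 1.42 and 0.400 in JN_40, and 0, 0.0259 and 0.0155 in JN_30. It passed the filter through libraries at 40 d alone and so had to be high there to be tested. Its levels are given as a description, with no p. With its second isoform added, the gene summed to 0.758, 1.32 and 0.381 FPKM in MT_40, 0 in MT_30, 1.34, 1.46 and 0.461 in JN_40, and 0, 0.161 and 0.0155 in JN_30. The sum was called for the stage effect too, but at 30 d only JN_8 lay above the filter's 0.1 FPKM.

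The assembled gene MSTRG.29612, opposite LOC100526921 on chromosome 2 (12126690 to 12127348, plus strand), had 4 antisense isoforms. Their sum was 38.9, 49.9 and 39.3 FPKM in MT_40, 14.7, 5.78 and 4.28 in MT_30, 14.2, 20.5 and 42.6 in JN_40, and 8.72, 13.7 and 1.61 in JN_30. All libraries at 40 d except JN_4 lay above all at 30 d, and the log2 fold change of the sum was 2.26 ± 0.48 (adjusted p = 0.0195). MSTRG.29612.1 made up most of it, with 34.8, 25.3 and 33.4 FPKM in MT_40. Of the other isoforms, MSTRG.29612.2 and MSTRG.29612.3 were called as well, at 2.33 ± 0.42 (adjusted p = 0.00752) and 1.77 ± 0.34 (adjusted p = 0.0105). MSTRG.29612.4 was present in MT_5 alone, at 18.8 FPKM.

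The remaining members called higher had smaller or less even changes. For MSTRG.16798.3 and MSTRG.16798.1 the log2 fold changes were 6.29 ± 1.34 (adjusted p = 0.0204) and 6.0 ± 1.30 (adjusted p = 0.0220), the largest standard errors among the calls. Both calls were lost when MT_4, MT_5, MT_8, MT_9, JN_4 or JN_7 was left out, and that of MSTRG.16798.1 also without JN_6. MSTRG.18508.1, MSTRG.19721.1, MSTRG.23621.1 and MSTRG.23736.1 rose by log2 fold changes of 1.17 to 2.11. Over the 25 calls of the stage effect, 14 were kept in every alternative in which the member was tested, and no call changed its direction. The 14 include MSTRG.31225.1 and MSTRG.36990.1, whose levels the filter required, so that their stability says nothing.

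Of the 4 members lower at 40 d, MSTRG.17969.1 was the most abundant. It lies opposite LOC100306319 on chromosome 15 (45099665 to 45108861, minus strand) and had 0.467, 0.352 and 1.54 FPKM in MT_40, 32.5, 25.2 and 16.4 in MT_30, 0.0706, 0 and 1.06 in JN_40, and 4.05, 20.1 and 0.112 in JN_30. MT_30 lay far above MT_40 in every library, whereas JN_30 overlapped JN_40 through JN_9. It fell by 4.13 ± 0.91 on the log2 scale averaged over the lines (adjusted p = 0.0239), a call lost without MT_4, MT_5, MT_7, MT_8, MT_9, JN_4, JN_5 or JN_7. MSTRG.355.2 opposite LOC100814075 had 0.584, 0.876 and 1.51 FPKM in MT_40, 2.17, 1.73 and 1.69 in MT_30, 0.636, 1.02 and 0.748 in JN_40, and 1.63, 1.98 and 1.61 in JN_30 (log2 fold change -0.99 ± 0.25, adjusted p = 0.0447). All libraries at 40 d lay below all at 30 d, and the call was kept without MT_6 or JN_9 and lost without any other library. Summed with its isoform MSTRG.355.1, the gene had a log2 fold change of -0.80 ± 0.21 and was not called (adjusted p = 0.0569).

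A pair of members was nearly limited to MT_30. MSTRG.31225.1, opposite LOC100793866 on chromosome 2, had 0, 0 and 0.0350 FPKM in MT_40, 0.946, 1.54 and 0.497 in MT_30, and the table lists it at 0 for each of the 6 JN18 libraries. MSTRG.41111.4, opposite LOC100782090 on chromosome 5, had 0, 0.0192 and 0 FPKM in MT_40, 1.72, 0.339 and 1.5 in MT_30, and 0 in all JN18 libraries. Both members passed the filter through the 3 MT_30 libraries alone and so had to be high there to be tested. Their levels are given as a description, with no p. The isoform MSTRG.41111.2 was called lower in MT_40, with 0, 0.312 and 0.0637 FPKM against 1.57, 3.52 and 1.56 in MT_30, and it was present in JN18 too, with 0, 0.0421 and 0.356 in JN_40 and 0.811, 0.450 and 0 in JN_30. The 4 isoforms of that gene summed to 0, 0.803 and 0.450 FPKM in MT_40, 5.37, 10.7 and 5.2 in MT_30, 0, 0.157 and 0.738 in JN_40, and 2.38, 0.995 and 0 in JN_30. This sum missed the threshold between MT_40 and MT_30 (adjusted p = 0.0692) and between MT_30 and JN_30 (adjusted p = 0.192).

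MSTRG.608.1 showed the reverse arrangement. Opposite LOC106794557 on chromosome 1 (8756660 to 8762394), it had 1.78, 1.03 and 1.44 FPKM in MT_40, 0, 0.0300 and 0 in MT_30, 0, 0 and 0.0351 in JN_40, and 0, 0.196 and 0 in JN_30. It was called higher in MT_40 than in MT_30 and than in JN_40, and both comparisons share the MT_40 libraries. Besides the 3 MT_40 libraries only JN_8 lay above the filter's 0.1 FPKM, and JN_8 is in neither comparison. The member thus had to be high in MT_40 to be tested, and its levels are given as a description, with no p. The size of the change depends on the pseudocount, and its log2 value in MT72 ranged from 1.25 to 6.66 over the alternatives. The difference from JN_40 was not called without JN_5, with a pseudocount of 0.01, a filter of 0.5 FPKM, only the compared groups or the replicate block.

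**Figure D3:**
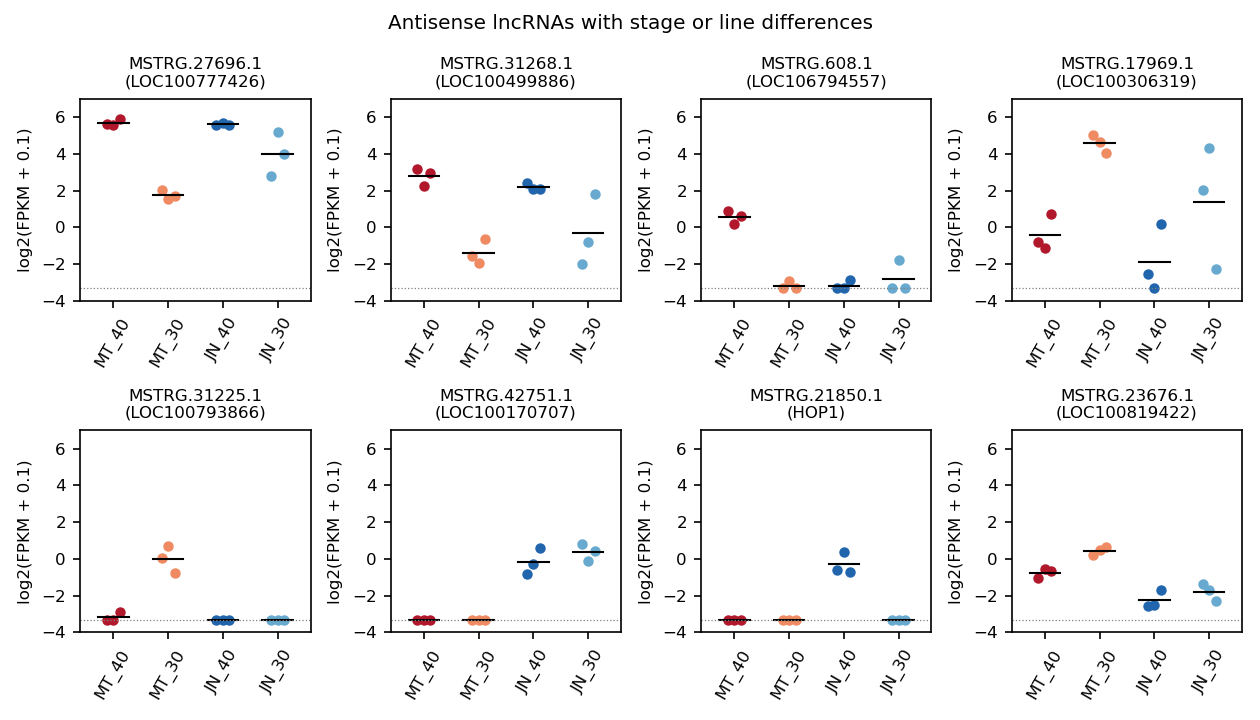
Levels of 8 called antisense lncRNAs are plotted as log2(FPKM + 0.1), with a point for each library and a bar at the group mean of 3, and the dotted line is the value of a transcript listed at 0. MSTRG.27696.1 and MSTRG.31268.1 are higher at 40 d in both lines, while MSTRG.42751.1 is at 0 in all 6 MT72 libraries and above 0 in all 6 of JN18.

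The next question was which members differed between MT72 and JN18. Averaged over the stages, 6 members were higher in MT72 and 6 were lower, where 0.788% and 0.219% of all tested lncRNAs were called. The members' shares were 3.08% in each direction, and their median log2 fold change was -0.03, against -0.02 over all. Members that passed the filter through 1 group made up 2 of the 6 higher and 1 of the 6 lower calls. The total of 12 was 7 without MT_4, 3 without MT_5, 4 without MT_6, 3 without MT_7 or MT_8, 2 without MT_9, 6 without JN_4, 5 without JN_5 and 7 without JN_6. At 40 d, 1 member was higher in MT_40 than in JN_40 and 2 were lower, with 0.109% and 0.0438% of all called, and none was left without JN_5 and 1 without JN_6. At 30 d, 4 members were higher in MT_30 than in JN_30 and 3 were lower, with 0.733% and 0.153% of all. Of the members called, 1 lower at 40 d passed the filter through JN_40 alone and 2 higher at 30 d through MT_30 alone. Not counted here is MSTRG.42751.1, called lower over both stages and at each, which passed through JN18 libraries alone. MSTRG.608.1, called higher over both stages and at 40 d, passed through the MT_40 libraries and JN_8. The 7 calls at 30 d came to 1 without MT_7, MT_8 or MT_9 and to 4 without MT_6 or JN_9. Among the 3 lower at 30 d was MSTRG.27696.1 (limma, log2 fold change -2.25, adjusted p = 0.0413), a call kept in 3 of 21 alternatives.

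The unadjusted thresholds were passed by 12 members higher and 13 lower in MT_40 than in JN_40, where 3.40% and 2.45% of all tested lncRNAs were. Between MT_30 and JN_30 the numbers were 15 higher and 16 lower, with 7.25% and 4.73% of all, and the total of 31 was 53 without JN_7.

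MSTRG.42751.1, opposite LOC100170707 on the minus strand of chromosome 6 (12480291 to 12480711, 2 exons and 217 bases), was listed at 0 in all 6 MT72 libraries. In JN18 it had 0.467, 0.710 and 1.43 FPKM in JN_40 and 1.66, 0.825 and 1.26 in JN_30. No other member was above 0 in all 6 libraries of a line and at 0 in all 6 of the other. It was called lower in MT72 over both stages, at 40 d and at 30 d. The call at 40 d was lost without MT_4, MT_5, MT_6, JN_5 or JN_6. With only the compared groups fitted, the calls at 40 d and at 30 d were both lost. The member passed the filter through JN18 libraries alone and so had to be present there to be tested. Its levels are therefore a description, with no p. No fold is given, since one side is listed at 0.

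Other members lower in MT72 were present in both lines. MSTRG.4276.1, opposite LOC106794863 on chromosome 10, had 0.702, 0.501 and 0.584 FPKM in MT_40, 0.884, 0.989 and 0.979 in MT_30, 1.37, 1.81 and 1.31 in JN_40, and 2.19, 1.96 and 1.78 in JN_30. Every MT72 library lay below every JN18 library, and the log2 fold change was -1.09 ± 0.21 (adjusted p = 0.0232), lost without MT_5, MT_6, MT_7, MT_8, MT_9 or JN_5. MSTRG.43831.1 opposite LOC100817370 had 0.0543, 4.10 and 0.000311 FPKM in MT_40, 0, 2e-06 and 0 in MT_30, 8.02, 3.54 and 2.51 in JN_40, and 1.74, 3.09 and 2.46 in JN_30 (adjusted p = 0.0182). MT_5 alone among the MT72 libraries reached the JN18 range, and the call was lost without MT_8, MT_9 or JN_4.

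MSTRG.44081.1 opposite LOC102659999 had 0.778, 1.001 and 1.37 FPKM in MT_40, 0.247, 0.370 and 0.485 in MT_30, 1.20, 4.04 and 1.05 in JN_40, and 1.71, 2.71 and 2.20 in JN_30. The lines overlapped at 40 d and not at 30 d, where the log2 fold change was -2.32 ± 0.47 (adjusted p = 0.0364). That call was lost without any 1 of the MT72 libraries, JN_8 or JN_9. MSTRG.2802.1 opposite LOC102662929 was at 0 in 4 MT72 libraries and at 0.217 and 0.133 FPKM in MT_8 and MT_9, against 0, 1.11 and 0.518 in JN_40 and 4.57, 1.08 and 1.33 in JN_30. Its line effect was just past the threshold (adjusted p = 0.0486) and kept in 5 of 20 alternatives.

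Among the members higher in MT72, MSTRG.23676.1 was the most even. Opposite LOC100819422 on chromosome 18, it had 0.381, 0.571 and 0.529 FPKM in MT_40, 1.06, 1.28 and 1.47 in MT_30, 0.0707, 0.0722 and 0.209 in JN_40, and 0.282, 0.206 and 0.105 in JN_30. Every MT72 library lay above every JN18 library (log2 fold change 1.87 ± 0.31, adjusted p = 0.00988), and the call was kept without each library in turn. It was lost with the replicate block (adjusted p = 0.0779), and the member's call at 30 d was kept in 10 of 21 alternatives. MSTRG.19005.1 opposite LOC100792367 had 0.0897, 1.38 and 1.06 FPKM in MT_40, 1.15, 0.610 and 1.34 in MT_30, 0.160, 0 and 0.0719 in JN_40, and 0 in all of JN_30 (adjusted p = 0.0182). MT_4 lay within the JN_40 range, and the call was lost without MT_5, MT_6, MT_7, MT_9 or JN_5. MSTRG.28718.1 opposite LOC100820140 had 0.374, 0.207 and 0.195 FPKM in MT_40, 1.91, 1.56 and 1.19 in MT_30, 0 in all of JN_40, and 0.0389, 0.810 and 0 in JN_30 (adjusted p = 0.0441), kept in 6 of 20 alternatives.

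**Figure D4:**
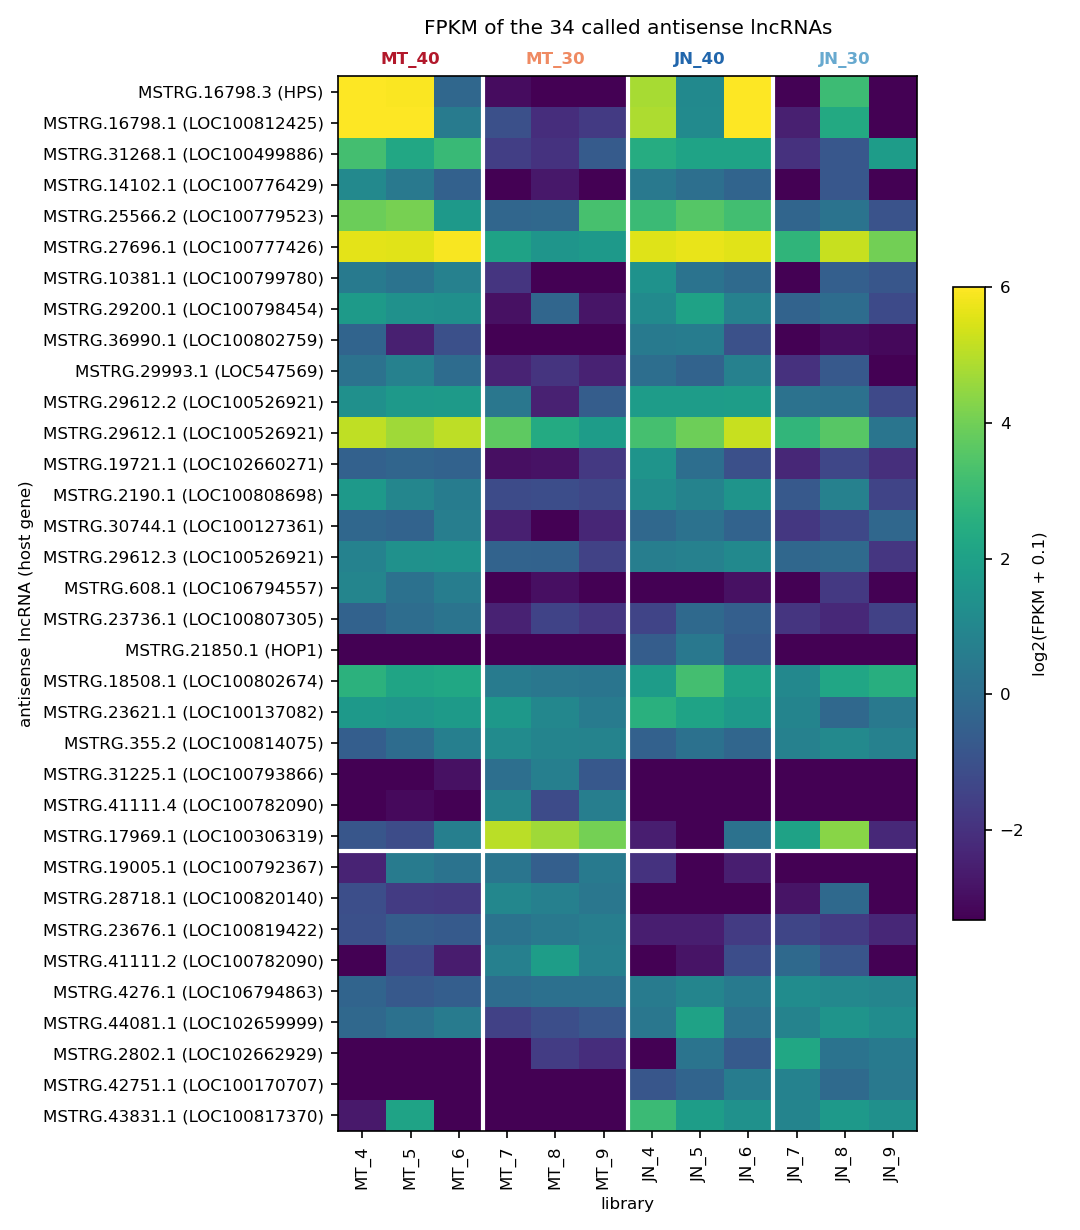
Colours give log2(FPKM + 0.1) of the 34 members called in at least 1 comparison, with a row for each member and a column for each library, and values above 6 share the top colour. The 25 rows above the white line were called for the stage effect averaged over both lines, and the others in a comparison of the lines or of the stages in MT72.

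HOP1 encodes a co-chaperone that links Hsp70 and Hsp90, and its antisense member MSTRG.21850.1 (chromosome 17, 11112875 to 11113292, plus strand) was seen only in JN_40. It had 0.566, 1.22 and 0.521 FPKM there and was listed at 0 in MT_40, MT_30 and JN_30. It was the 1 member called between JN_40 and JN_30 and 1 of those called lower in MT_40 than in JN_40. It passed the filter through the 3 JN_40 libraries alone and so had to be high there to be tested. Its levels are therefore a description, with no p. The only other member above 0 in all 3 libraries of 1 group and at 0 in the rest was MSTRG.32035.1 opposite LOC100792715, with 0.0390, 1.5 and 0.147 FPKM in MT_30, which did not pass the filter.

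Isoforms of 1 assembled gene share reads, and the division between them can differ from library to library. This touched 61 members that share their gene with another member. At LOC100779523 on chromosome 18, MSTRG.25566.2 and MSTRG.25566.3 start 23 bases apart, end at the same base, and differ by 20 bases in length. MSTRG.25566.2 had 15.1, 16.7 and 3.11 FPKM in MT_40, 0.752, 0.785 and 9.62 in MT_30, 8.05, 11.5 and 9.04 in JN_40, and 0.727, 1.08 and 0.423 in JN_30. MSTRG.25566.3 was its mirror image, with 0.0749, 0.0932 and 11.6 FPKM in MT_40, 12.1, 11.9 and 0.0426 in MT_30, 0, 0.145 and 0.00665 in JN_40, and 6.48, 9.08 and 5.64 in JN_30. One of the isoforms took nearly everything in most libraries, and MT_6 and MT_9 went against the other libraries of their own stage. The paper reports MSTRG.25566.3 as down-regulated by qRT-PCR, as in its sequencing. Whether that assay tells MSTRG.25566.3 from MSTRG.25566.2 is not stated in its text.

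Read alone, MSTRG.25566.2 was called for the stage effect (log2 fold change 2.92 ± 0.59, adjusted p = 0.0136). The third isoform, MSTRG.25566.1, had 11.04, 11.3 and 10.2 FPKM in MT_40, 6.78, 5.97 and 6.47 in MT_30, 5.71, 7.75 and 7.52 in JN_40, and 4.69, 6.24 and 2.48 in JN_30. Summed over the 3 isoforms, the gene had 26.4 ± 1.60 FPKM in MT_40 and 18.1 ± 1.80 in MT_30, beside 16.6 ± 2.82 in JN_40 and 12.3 ± 3.94 in JN_30. The stage effect of the sum was 0.50 ± 0.21 on the log2 scale and was not called (adjusted p = 0.193). The call of MSTRG.25566.2 is thus uncertain as a change of the locus.

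**Figure D5:**
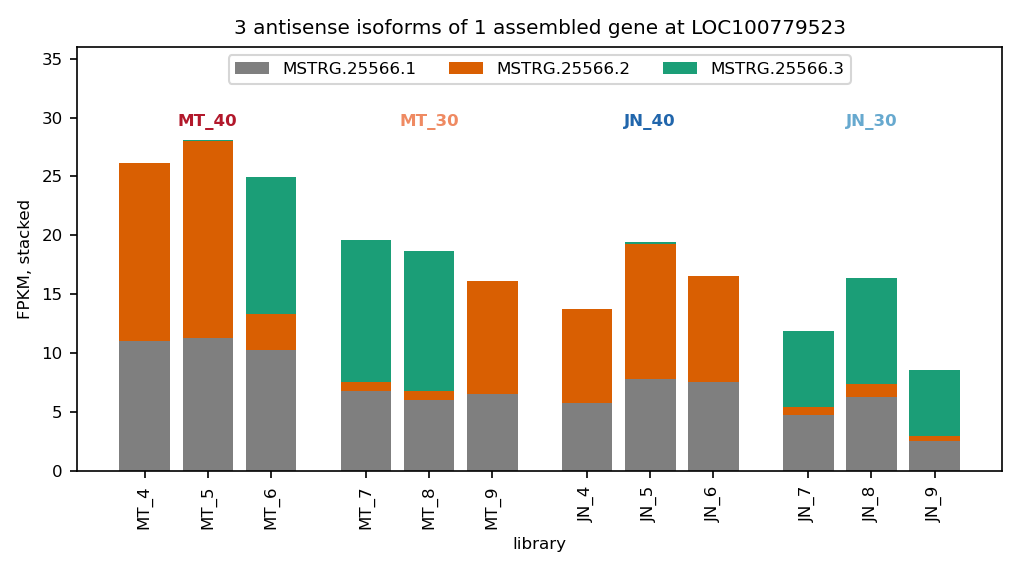
Stacked bars give the FPKM of the 3 antisense isoforms opposite LOC100779523 in each library. MSTRG.25566.2 and MSTRG.25566.3 replace each other between libraries, also within MT_40 and within MT_30, while their sum with MSTRG.25566.1 varies less.

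At LOC100805092 the sum was called and the single isoform was not. The reference names this host NMHC5, a MADS-box gene. MSTRG.12387.1 had 9.83, 5.40 and 9.19 FPKM in MT_40, 10.8, 13.9 and 12.4 in MT_30, 9.26, 9.81 and 8.42 in JN_40, and 14.5, 12.7 and 13.7 in JN_30, and it missed the stage threshold (adjusted p = 0.104). MSTRG.12387.2 was above 0 in 5 libraries only, with 5.5 FPKM in MT_5, 7.15 in MT_7, 4.85 in MT_9, 4.28 in JN_8 and 3.6 in JN_9. Their sum was 9.97 ± 0.86 FPKM in MT_40 and 16.4 ± 2.20 in MT_30, beside 9.16 ± 0.70 in JN_40 and 16.3 ± 1.55 in JN_30. No library at 40 d reached those at 30 d, and the sum fell by 0.76 ± 0.17 on the log2 scale (adjusted p = 0.0260).

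Some members rested on single libraries. A level above 1 FPKM in 1 library with at most 0.1 FPKM in the other 11 was found for 19 members, of which 8 were in JN_9 and at most 2 in any other library. MSTRG.17023.1, MSTRG.17024.1 and MSTRG.17024.2, all opposite LOC100805839 on chromosome 15, had 10.0, 12.7 and 6.65 FPKM in JN_9 and 0 in all other libraries. MSTRG.11035.1 opposite LOC100779408, chosen after its values were seen, had 82.3 FPKM in MT_4 and at most 0.789 elsewhere. None of these can be read as a group level.

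Members opposite genes with a symbol were mostly low. The table gives 12 such hosts with 18 members, of which 5 had 0 FPKM throughout and 3 were above 0 in 1 library. Glycinins are major storage proteins of the soybean seed, and antisense members of both glycinin hosts were almost absent. All 3 members opposite GY1 were at 0 throughout, and of the 2 opposite A5A4B3, named GY4 in the reference, MSTRG.2630.1 was at 0 and MSTRG.2631.1 had 0.128 FPKM in JN_6 alone. MSTRG.13259.1, opposite the seed lipoxygenase gene LOX2, was at 0 throughout, as was MSTRG.48157.1, opposite the seed vacuolar protein gene P34 (LOC548062). The member opposite D-II, a Bowman-Birk type proteinase inhibitor, had 0.0503 FPKM in JN_6 and 0 elsewhere. At the depth of these libraries an absent antisense transcript and one of very few reads cannot be told apart.

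SALI5-4A is named for its induction by aluminium. Its member MSTRG.9662.1 had 14.0, 47.3 and 7.08 FPKM in MT_40, 1.48, 2.22 and 2.61 in MT_30, 0.921, 2.40 and 4.92 in JN_40, and 0.652, 6.95 and 0.231 in JN_30. The MT_40 libraries lay above all others, but the spread within groups was wide and the difference from MT_30 was not called (adjusted p = 0.143), nor was that from JN_40 (adjusted p = 0.580). Its second isoform MSTRG.9662.3 had 9.88 FPKM in MT_4 and at most 0.0556 elsewhere.

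The cytochrome P450 gene CYP72A68 had 3 members. MSTRG.18002.1 had 0.127, 0.898 and 0.362 FPKM in MT_40, 0.601, 0.141 and 0.125 in MT_30, 0.794, 2.56 and 0.183 in JN_40, and 0.164, 0.0389 and 0.0562 in JN_30, and JN_5 was the highest library in the other 2 as well. A second P450 gene, CYP83E8, had a member at 3.75 FPKM in JN_4 and at most 0.00713 elsewhere. The member opposite SHMT, which encodes serine hydroxymethyltransferase of one-carbon metabolism, had 1.49 FPKM in JN_6 and 0 elsewhere, that opposite MSG had 14.4 FPKM in MT_8, 1.10 in MT_9 and 0 elsewhere, and that opposite the trihelix transcription factor gene GT-2A stayed at or below 0.514 FPKM. None of the members named in this paragraph was called.

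The aquaporin gene PIP1-7 (LOC100780145) had the member MSTRG.14119.1, which averaged 3.44 FPKM in MT_40 and 1.43 in MT_30, beside 3.63 in JN_40 and 3.28 in JN_30. A second aquaporin gene, PIP2-5 (LOC732604), had a member in JN_9 alone, at 1.87 FPKM.

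The host with most members was LOC102664287 on chromosome 15, with 5 isoforms of 1 gene that reach over 84255 bases. The most abundant, MSTRG.17758.5, was among the steadiest members, between 0.952 and 2.19 FPKM with a coefficient of variation of 0.234. MSTRG.17758.6 varied most, with 0.412, 0.768 and 0.724 FPKM in MT_40, 0, 0 and 0.0217 in MT_30, 0, 1.18 and 0.990 in JN_40, and 0.0242, 1.16 and 0.00210 in JN_30. At LOC100777598 on chromosome 12, MSTRG.7808.1 had 0.786 to 2.05 FPKM in every library but JN_8, with 7.81, and JN_9, with 0.

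Of the hosts, 24 also had an intronic or sense lncRNA in the table. At LOC100527500 the antisense MSTRG.38510.1 and MSTRG.38512.1 lay beside the sense MSTRG.38511.1, which had 13.2, 9.18 and 9.95 FPKM in MT_40, 9.11, 10.0 and 10.2 in MT_30, 9.54, 8.70 and 10.4 in JN_40, and 8.95, 10.9 and 7.99 in JN_30. The antisense MSTRG.38512.1 had 5.95, 4.41 and 5.69 FPKM in MT_40, 3.44, 2.96 and 3.87 in MT_30, 13.8, 8.26 and 3.14 in JN_40, and 3.97, 3.67 and 8.4 in JN_30. A second sense transcript, MSTRG.38511.2, had 4.8, 2.95 and 4.39 FPKM in MT_40, 1.66, 1.02 and 1.08 in MT_30, 2.63, 3.98 and 3.71 in JN_40, and 1.21, 1.95 and 1.70 in JN_30. Its 6 libraries at 40 d lay above all 6 at 30 d, whereas those of both antisense members and of MSTRG.38511.1 overlapped.

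At the RSV3 host, the antisense MSTRG.15494.1 averaged 5.56 FPKM in MT_40 and 5.19 in MT_30, and in JN18 5.28 in JN_40 and 4.56 in JN_30. The intronic MSTRG.15495.1 stood at a mean of 3.81 FPKM over all libraries. At NMHC5 the sense MSTRG.12388.3 had 0.773, 0.539 and 0.596 FPKM in MT_40, 1.34, 1.09 and 1.26 in MT_30, 0.672, 0.601 and 0.333 in JN_40, and 1.21, 1.07 and 0.716 in JN_30. Of its libraries at 40 d, only MT_4 reached those at 30 d, through JN_9. At LOC100500027 the antisense MSTRG.29038.1 (3.70 to 7.88 FPKM) stood beside a low intronic lncRNA, at a mean of 0.544 FPKM. At LOC106799440 the antisense MSTRG.45313.1 was highest in JN_4, with 9.48 FPKM, where the intronic MSTRG.45314.1 had 12.8 FPKM, and in MT_6 the antisense had 2.40 and the intronic 14.4 FPKM.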

How the data were processed

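Values came from the deposited table of 11072 lncRNA transcripts in 12 libraries of young pods, with 3 labelled replicates in each of 4 groups taken from the sample labels. Each FPKM value was made by the authors with StringTie, after trimming with Cutadapt and mapping with HISAT2 per the methods or TopHat2 per the submitters' processing notes. Versions and the genome build of the positions were not given in the sources used here. Mean read coverage per base was deposited by the authors for each library. The CPC score and CNCI score of coding potential were computed by the authors, who kept transcripts over 200 bases without coding potential. All columns of library values were used (0 left out). Depth was read from the constant ratio of coverage to FPKM, and no read counts were given.

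Members were the rows of class code x on chromosomes 1 to 20. They, the lists and the rule for named transcripts were chosen with earlier results of these data known. The rule takes members called in any of 7 comparisons (at most 10 per direction), those opposite hosts with a symbol, the 10 most abundant, those of the 5 most abundant hosts with at least 3 members, those seen in 1 group only, and 5 hosts that also hold another lncRNA. Other members named, and the counts of transcripts seen in 1 library, were chosen after their values were seen.

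The 9142 lncRNAs above 0.1 FPKM in at least 3 libraries were tested with limma 3.58.1 (R version 4.3.3) after adding 0.1 to FPKM and taking log2, all groups in 1 fit, with Benjamini-Hochberg adjustment over all of them and a threshold of 0.05. Fold changes are on that scale and understate low transcripts. The fit was tested on simulated data. Alternatives were pseudocounts of 0.01 and 1, other filters, FPKM rescaled to 1 upper quartile, voom on estimated reads, array weights, only the compared groups, a replicate block, each library left out and, added after seeing the data, isoforms of a gene summed. Host names matched the reference table (Glycine_max_v4.0) for 187 of 207 hosts. It holds no products, so that lists by host product were not run. Figures used Python 3.11.15 and matplotlib 3.10.9.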

Additional observations from a re-analysis of the deposited data

How the results depend on the processing

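Over the 62 calls of 34 members, 19 were kept in every alternative in which the member was tested, and no call changed its direction in any. Of the 62, 12 belong to 3 members that passed the filter through 1 group alone, and their stability says nothing. The same holds for the calls of MSTRG.608.1, MSTRG.36990.1 and MSTRG.42751.1, which had to be high or present on the side called higher. Such members made all but 1 (MSTRG.27696.1) of the 4 calls between MT_40 and MT_30 kept in every alternative. The 1 line call kept throughout was that of MSTRG.42751.1. Between MT_40 and MT_30, 14 members were called, and 22 with a pseudocount of 1, 35 when only the compared groups were fitted and 41 with array weights (3 to 27 with 1 library left out). Between JN_40 and JN_30, 1 was called, and 0 with a pseudocount of 1, with a filter of 0.5 FPKM and with array weights (0 to 7 with 1 library left out). The 3 calls between MT_40 and JN_40 were 1 with the filter of 0.5 FPKM and 0 when only the compared groups were fitted (0 to 3 with 1 library left out). The 7 calls between MT_30 and JN_30 were 4 with the filter of 0.5 FPKM, 1 when only the compared groups were fitted and 3 with voom on estimated reads (1 to 8 with 1 library left out). The 12 calls of the line effect were 5 with a pseudocount of 1 and 6 with voom (2 to 12 with 1 library left out), and the 25 of the stage effect were 15 to 41 with 1 library left out. The different stage effect of the lines had 0 calls, and 1 with a pseudocount of 1 and with array weights (0 to 1 with 1 library left out). At the unadjusted thresholds a pseudocount of 1 left 27 of 51 members between MT_40 and MT_30, 14 of 42 between JN_40 and JN_30, 6 of 25 between MT_40 and JN_40 and 17 of 31 between MT_30 and JN_30, the last being 29 to 53 with 1 library left out. Shares over all tested lncRNAs were computed for the main fit only. Whether these shifts concern the members or all lncRNAs alike therefore cannot be told from the counts. The cause of these shifts was not tested. Same-numbered libraries of MT72 and JN18 did not deviate together (correlations of -0.160 to 0.0136), and the main fit used no replicate block. With 3 libraries per group this check is weak, and whether same-numbered libraries were handled together is not stated. With the replicate block there were 0 calls between MT_40 and JN_40, 3 between MT_30 and JN_30 and 2 for the line effect, and the stage comparisons share no numbers. Summing the isoforms of a gene kept every count of calls within 1.5 times. At the 22.0 to 26.9 reads per FPKM implied by the ratio of coverage to FPKM, a level under 0.1 FPKM stands for only a few reads. Whether the counting used strand is not stated.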
